A study of Mus musculus with 12 samples.

Results

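The genes described here are the interleukin-6 (IL-6) family signalling genes Il6, Lif, Il6ra, Il6st, Lifr, Osmr, Jak2, Stat3, Socs2 and Socs3. They were taken by symbol: every probe set (a group of short probes for 1 transcript) annotated with 1 of these symbols and no other gene was used. This gave 10 genes with 23 probe sets, out of 12393 genes and 22690 probe sets on the array. Messenger RNA had been measured in hearts of C57Bl/6 mice, an inbred strain, with 12 Affymetrix arrays of 1 colour, each for 1 mouse, in 4 groups of 3. Wake MI mice had myocardial infarction (MI), made by ligating the left anterior descending coronary artery, with surgery between ZT13 and ZT15 and heart collection at ZT23, and wake sham mice had sham surgery at the same hours. Sleep MI and sleep sham mice had the same procedures between ZT1 and ZT3, with collection at ZT11. ZT, zeitgeber time, is the number of hours after lights on, and all hearts were taken 8 hours after surgery. Surgery and collection time changed together, so they cannot be told apart in any wake against sleep difference. MI samples carry the label infarcted myocardium, whereas for sham hearts the labels name no region.

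IL-6 family cytokines bind a specific receptor chain and then the shared signalling chain gp130, the product of Il6st. Janus kinases (JAKs) attached to gp130 phosphorylate the transcription factor STAT3, which moves to the nucleus and induces genes, among them Socs3. The SOCS3 protein binds gp130 and the JAKs and shuts the signal off, so Socs3 messenger RNA is widely used as a readout of this pathway. In the injured heart the family is known for an acute inflammatory and a cardiomyocyte-protective role.

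The values are deposited MAS5 signals, an intensity per probe set with no unit, with a trimmed mean of 150.09 to 150.1 on every array. With 3 arrays a group, precision is limited by their number. Pearson r across genes was 0.974 to 0.988 between arrays of a group, where genes are not independent replicates. The label of heart muscle was borne out by the 8 cardiomyocyte markers, whose summed signal was 62349 to 74990 in wake MI, 58146 to 65795 in wake sham, 67047 to 75076 in sleep MI and 53760 to 72453 in sleep sham hearts. The 8 neutrophil markers on the array summed to 997 to 1380 in wake MI and 148 to 554 in wake sham hearts, and to 1132 to 2091 in sleep MI and 308 to 901 in sleep sham hearts. All 6 T and B lymphocyte markers on the array lay below the level at which genes were tested, the highest signal being 14.4. The 4 atrial muscle markers summed to 998 to 1436 in wake MI hearts, against 1715, 2123 and 14686 in wake sham hearts, and 3 were called as lower there (Myl7, Myl4 and Sln). In sleep hearts they summed to 1815 to 2949 after MI and 1671 to 4720 after sham surgery, and 0 were called. Fibroblast markers summed to 5462 to 7068 in wake MI and 8066 to 11999 in wake sham hearts, and 3 of 7 were called as lower there (Col1a1, Tcf21 and Lum). Monocyte and macrophage markers summed to 2472 to 2898 in wake MI and 3137 to 5013 in wake sham hearts, with 2 of 7 called as lower (Adgre1 and Lyz2) and 1 as higher (Cd14). Among all genes tested, 7.8% were called as higher and 10.6% as lower in wake hearts. The sleep groups overlapped in the fibroblast sums and in the monocyte and macrophage sums. Whether these markers have a part in the changes of the family was not tested. In bulk tissue, more cells of a type and more RNA per cell cannot be told apart. The beta-actin ratio (signal of 3′ over 5′ control probes), a measure that broken RNA raises, was 2.17 to 3.31 in wake MI, 1.77 to 1.81 in wake sham, 2.09 to 2.92 in sleep MI and 1.94 to 2.49 in sleep sham hearts.

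Among the sleep sham arrays, replicate 3 stood apart for these genes. It was the lowest of the 3 sleep sham arrays for 8 of the 9 members tested, against 34.8% of the 8111 genes tested. Wake sham replicate 1 and sleep MI replicate 1 were each the lowest of their group for 6 of the 9 members, against 30.4% and 34.6% of all genes. The summed neutrophil markers of sleep sham replicate 3 were 308, against 689 and 901 in the other sleep sham arrays. Its beta-actin ratio was 1.94, against 2.49 and 2.11. Its atrial muscle markers summed to 4720, against 1873 and 1671. What set this array apart was not tested, and calls that rest on the sleep sham group are given with and without it.

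The promoters of Il6 and Socs3 are shown because these genes had the 2 largest MI changes of the family. Of the 10 members, 9 had a promoter in the RefSeq table for GRCm38.p6, and Socs2 is named only. Each stretch holds the 250 bases before the annotated start of the gene, read 5′ to 3′ on the gene's own strand, at chr5:30012864-30013113 on the + strand for Il6 and chr11:117969367-117969616 on the - strand for Socs3. Capitals mark matches to 3 motifs searched on both strands: TTCNNNGAA, the palindrome that STAT factors bind; TGANTCA, the AP-1 motif; and GGANTTTCC, the core of an NF-kB motif.
Il6: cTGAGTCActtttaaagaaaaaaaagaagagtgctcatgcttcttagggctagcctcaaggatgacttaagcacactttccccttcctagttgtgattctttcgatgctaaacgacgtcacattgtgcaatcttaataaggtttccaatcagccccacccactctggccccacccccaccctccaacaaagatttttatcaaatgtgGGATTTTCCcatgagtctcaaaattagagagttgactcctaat
Socs3: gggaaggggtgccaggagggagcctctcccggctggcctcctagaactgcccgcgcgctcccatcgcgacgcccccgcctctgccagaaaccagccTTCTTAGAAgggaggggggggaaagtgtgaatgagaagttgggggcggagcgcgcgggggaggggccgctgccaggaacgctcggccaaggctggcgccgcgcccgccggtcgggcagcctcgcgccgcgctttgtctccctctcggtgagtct
In the Il6 stretch the AP-1 match began 249 bases and the NF-kB match 43 bases before the start, and in the Socs3 stretch the STAT match began 154 bases before it. Counted over windows that also hold the first 50 bases of the gene, a STAT match occurred in 1 of 10 member windows and in 8.3% of all 32851 windows of 300 bases. An AP-1 match occurred in 3 of 10 (Il6, Lif and Osmr) and in 7.81% of all windows, and an NF-kB match in 1 of 10 and in 1.25%. These matches describe letters in a window and show no binding.

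Of the 9 members tested, 6 had higher signals after MI over both times of day: Il6, Osmr, Jak2, Stat3, Socs2 and Socs3. Over all 8111 genes tested, 22.2% were called at an adjusted p below 0.05, with 8.57% higher and 13.6% lower. In wake hearts 7 members were higher, the same 6 and Il6ra, where 18.4% of all genes were called, 7.8% higher and 10.6% lower. In sleep hearts 3 were higher, Il6, Socs2 and Socs3, where 2.68% of all genes were called, 1.69% higher and 0.986% lower. No member was called as lower in any of these comparisons. The members were chosen with earlier results of these data known, so these counts are a description. The median log2 change of the 9 members was 0.46 over both times, 0.67 in wake and 0.26 in sleep hearts, against medians of -0.06, -0.06 and -0.05 over all genes tested. All tests are two-sided limma tests on log2(signal + 16), adjusted over all genes tested. Fold changes are on that scale, which makes changes of dim genes look smaller than they are.

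**Figure D1:**
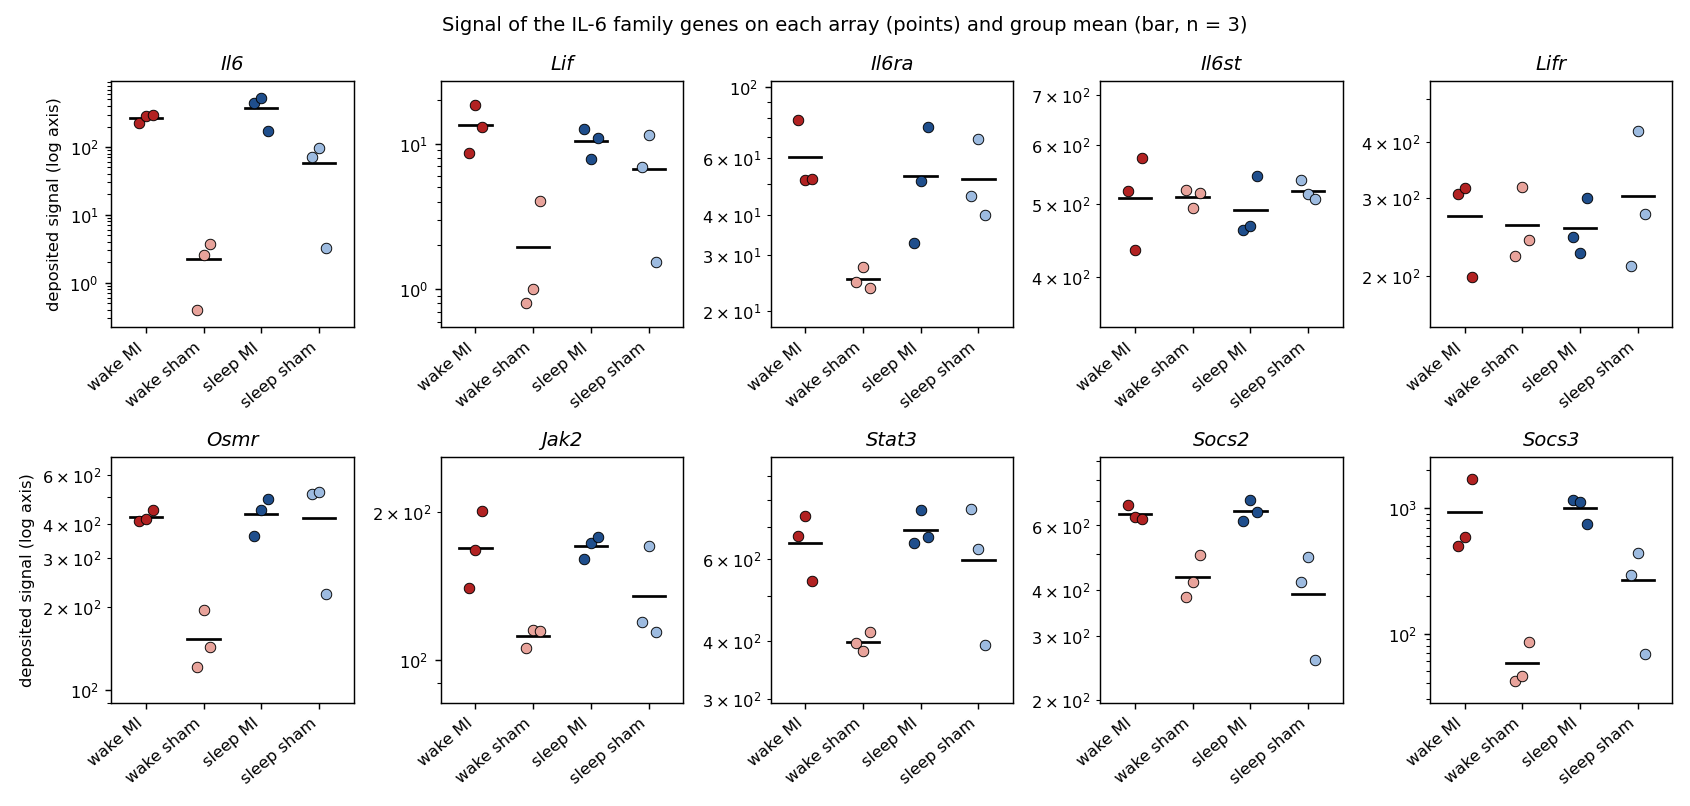
Deposited signal (log axis, own range in each panel) of the 10 genes on each of the 12 arrays, by group; points are arrays and bars are means of 3 arrays. Il6 and Socs3 lay higher in MI than in sham hearts at each time with no overlap, and the lowest sleep sham point of Il6, Osmr, Stat3, Socs2 and Socs3 is replicate 3.

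Il6 encodes the cytokine IL-6 itself, and its RNA (probe set 1450297_at) had the largest fitted change of the family, ahead of Socs3, at pseudocounts of 16 and 1 but not at 64. Its signals were 227, 283 and 293 in wake MI hearts, against 0.395, 2.53 and 3.75 in wake sham hearts. The sleep values were 446, 522 and 174 after MI, against 71.0, 97.8 and 3.19 after sham surgery. MI and sham arrays did not overlap at either time, but 2 of the sleep sham hearts held clear Il6 signal while all wake sham hearts and the remaining sleep sham heart were near zero. The log2 change with MI was 3.96 in wake hearts (SE 0.51, 95% interval 2.86 to 5.05, limma adjusted p = 0.0003031). The size of this change is set largely by the pseudocount, because the wake sham signals lie far below both 16 and the level filter of 17.3. The wake value was 6.54 with a pseudocount of 1 and 2.32 with 64, and passed with both, and the ratio of mean signals was 120. Socs3, with the same pseudocounts, was at 3.82 and 2.84 in wake hearts. The sleep value of Il6 was 2.65 (SE 0.51, interval 1.56 to 3.75, limma adjusted p = 0.01556), or 6.29-fold on this scale. Over both times Il6 was at 3.30 (SE 0.36, limma adjusted p = 4.825e-05). The sleep call was lost with a pseudocount of 1 (limma adjusted p = 0.05869), with robust variances (0.06126) and with the sleep arrays fitted alone (0.05199).

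Lif encodes leukemia inhibitory factor, a related cytokine. Its 2 probe sets had mean signals of 8.11 and 2.45, below the level filter of 17.3, so it was not among the 9 genes tested. The stronger probe set read 8.67, 18.4 and 13.0005 in wake MI hearts, against 0.801, 1.01 and 4.04 in wake sham hearts. Sleep hearts read 12.5, 7.86 and 10.98 after MI, against 6.91, 11.5 and 1.53 after sham surgery. The wake groups did not overlap and the sleep groups did. With no level filter the log2 change was 0.70 in wake hearts (SE 0.17, limma adjusted p = 0.02157) and 0.24 in sleep hearts (SE 0.17, limma adjusted p = 0.5954). Without that filter 10.2% of all genes were called in wake and 1.13% in sleep hearts. The weaker probe set, 1450160_at, gave 0.15 in wake hearts, where its groups overlapped, and -0.26 in sleep hearts. Neither passed (limma adjusted p over all probe sets = 0.6266 and 0.5428).

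Among the receptor chains, Osmr changed most and Il6st and Lifr did not pass the test. Osmr encodes the oncostatin M receptor, which pairs with gp130. Its signals (probe set 1418674_at) were 408, 417 and 449 in wake MI hearts, against 121, 195 and 143 in wake sham hearts. Osmr in sleep hearts read 362, 450 and 492 after MI, against 515, 520 and 224 after sham surgery. Wake MI and wake sham arrays did not overlap, whereas 2 sleep sham hearts lay above all sleep MI hearts. Osmr rose in log2 by 1.40 in wake hearts (SE 0.25, interval 0.86 to 1.95, limma adjusted p = 0.002632). The sleep value was 0.13 (SE 0.25, interval -0.41 to 0.67, limma adjusted p = 0.844). Over both times it was 0.77 (limma adjusted p = 0.008444). A second Osmr probe set, 1418675_at with a mean signal of 17.5, gave 0.38 in wake hearts and did not pass (limma adjusted p = 0.1795).

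Il6ra encodes the IL-6 receptor alpha chain, which gives a cell its specificity for IL-6. Its signals (probe set 1452416_at) were 78.7, 51.4 and 51.7 in wake MI hearts, against 24.7, 27.4 and 23.7 in wake sham hearts. Il6ra in sleep hearts read 32.6, 50.8 and 75.0 after MI, against 45.9, 68.9 and 39.9 after sham surgery. The wake sham hearts were the lowest of all 12 and did not overlap with any other group, while the sleep MI and sleep sham hearts covered the same range. The log2 change was 0.87 in wake hearts (SE 0.22, interval 0.40 to 1.35, limma adjusted p = 0.01504) and 0.00 in sleep hearts (SE 0.22, interval -0.47 to 0.47, limma adjusted p = 0.9961). Over both times it was 0.44 and did not pass (limma adjusted p = 0.05667). The second Il6ra probe set, 1422270_a_at with a mean of 20.9, gave 0.27 in wake hearts (limma adjusted p = 0.4954), and averaging both probe sets ended the wake call at 0.57 (limma adjusted p = 0.06546).

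Il6st, the gp130 gene used by every cytokine of the family, was among the steadiest members. Its signals (probe set 1452843_at) were 520, 434 and 576 in wake MI hearts and 523, 495 and 517 in wake sham hearts. They were 463, 467 and 545 in sleep MI hearts and 539, 517 and 508 in sleep sham hearts. All 4 groups overlapped. The log2 change with MI was -0.01 in wake hearts (interval -0.25 to 0.22) and -0.08 in sleep hearts (interval -0.32 to 0.15), and neither passed the test. Of its other probe sets, 1460295_s_at (mean 99.6) gave -0.32 in wake hearts and did not pass (limma adjusted p = 0.1464), and the third lay below the level filter. With the mean of its probe sets, the wake change was -0.28 (limma adjusted p = 0.04925).

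Lifr, the receptor chain for leukemia inhibitory factor, read 306, 316 and 199 in wake MI hearts, against 222, 318 and 241 in wake sham hearts, on probe set 1454984_at. In sleep hearts it read 245, 225 and 299 after MI, against 211, 423 and 276 after sham surgery. The groups overlapped at each time. The log2 change was 0.06 in wake hearts (interval -0.43 to 0.54) and -0.18 in sleep hearts (interval -0.67 to 0.30). Its other probe sets had mean signals of 25.6 and 22.1 and did not pass either. 

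Jak2, the gene of a kinase attached to gp130, was higher after MI by a modest amount. Its signals (probe set 1421066_at) were 140, 167 and 200 in wake MI hearts, against 106, 115 and 114 in wake sham hearts. In sleep hearts they were 160, 173 and 178 after MI, against 120, 170 and 114 after sham surgery. The wake groups did not overlap, and in sleep hearts 1 sham array lay among the MI arrays. Jak2 rose in log2 by 0.52 in wake hearts (SE 0.15, limma adjusted p = 0.02547) and 0.42 over both times (SE 0.10, limma adjusted p = 0.01138). Jak2 in sleep hearts was at 0.32 (SE 0.15, interval 0.01 to 0.64, limma adjusted p = 0.2797). The second Jak2 probe set, 1421065_at, gave 0.50 in wake hearts (limma adjusted p = 0.02198) and 0.39 over both times (limma adjusted p = 0.01115).

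Stat3, the gene of the transcription factor that carries the signal, read 671, 739 and 539 in wake MI hearts, against 396, 382 and 418 in wake sham hearts, on probe set 1426587_a_at. Sleep hearts read 647, 762 and 668 after MI, against 766, 630 and 392 after sham surgery. The wake groups did not overlap, and the highest of the 12 values came from a sleep sham heart. Stat3 rose in log2 by 0.67 in wake hearts (SE 0.19, limma adjusted p = 0.02483) and 0.46 over both times (SE 0.13, limma adjusted p = 0.02366). Stat3 in sleep hearts was at 0.26 (SE 0.19, interval -0.15 to 0.66, limma adjusted p = 0.5303). A second probe set of near equal strength, 1460700_at, gave 0.90 in wake hearts (limma adjusted p = 0.00303) and 0.36 in sleep hearts (limma adjusted p = 0.3106).

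Socs3, the feedback inhibitor of gp130 signalling, was the other member with a large change. Its signals (probe set 1455899_x_at) were 497, 584 and 1708 in wake MI hearts, against 42.03, 46.0 and 86.3 in wake sham hearts. In sleep hearts they were 1162, 1122 and 748 after MI, against 296, 440 and 68.8 after sham surgery. MI and sham arrays did not overlap at either time, and replicate 3 of sleep sham lay within the range of the wake sham hearts. Socs3 rose in log2 by 3.50 in wake hearts (SE 0.53, interval 2.36 to 4.63, limma adjusted p = 0.0008362), an 11.3-fold rise. The sleep value was 2.14 (SE 0.53, interval 1.003 to 3.27, limma adjusted p = 0.04654), a 4.40-fold rise. Over both times it was 2.82 (SE 0.37, limma adjusted p = 0.0002254). The 3 Socs3 probe sets gave 3.50, 3.12 and 2.80 in wake hearts, each with a limma adjusted p of 0.0007657 or below. In sleep hearts 1416576_at passed (1.91, limma adjusted p = 0.01099) and 1456212_x_at did not (1.85, limma adjusted p = 0.0515).

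Socs2, a relative of Socs3 that restrains growth hormone signalling, rose less but at both times. Its signals (probe set 1449109_at) were 682, 631 and 624 in wake MI hearts, against 383, 421 and 498 in wake sham hearts. Socs2 in sleep hearts read 617, 704 and 652 after MI, against 422, 493 and 258 after sham surgery. All MI hearts lay above all sham hearts. The log2 change was 0.56 in wake hearts (SE 0.18, limma adjusted p = 0.0419), 0.77 in sleep hearts (SE 0.18, limma adjusted p = 0.03533) and 0.67 over both times (SE 0.13, limma adjusted p = 0.002449). The second Socs2 probe set, 1418507_s_at, passed in wake hearts (0.69, limma adjusted p = 0.04476) and not in sleep hearts (0.77, limma adjusted p = 0.08588).

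**Figure D2:**
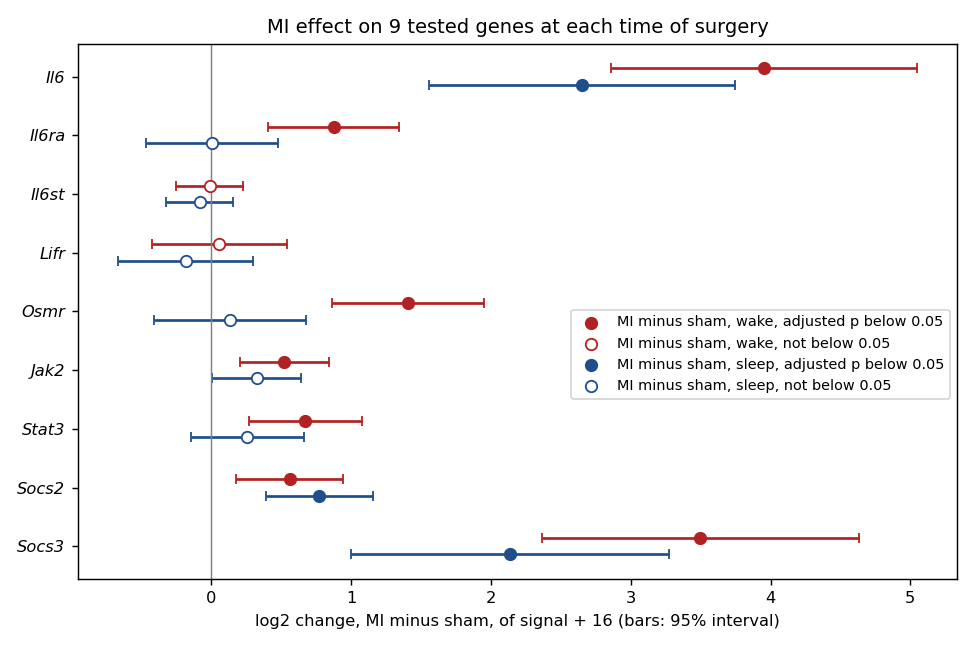
Log2 change of signal + 16, MI minus sham, for the 9 tested genes in wake (red) and sleep hearts (blue), with 95% intervals from limma; filled points have an adjusted p below 0.05. Il6 (3.96 in wake and 2.65 in sleep hearts) and Socs3 (3.50 and 2.14) stand to the right, and the Il6st and Lifr intervals cover 0 at both times.

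Leaving out 1 array at a time separated the firm calls from the marginal ones. In wake hearts Il6, Osmr and Socs3 passed in all 6 such fits, Il6ra in 4 (lost on leaving out wake MI 1 or wake sham 3), Jak2 in 2 (kept on leaving out wake MI 1 or wake sham 2), Stat3 in 1 (without wake MI replicate 3) and Socs2 in 0. The count of members called was 3 without wake sham replicate 3, 4 without wake MI replicate 1, wake MI replicate 2 or the first wake sham replicate, and 5 when wake MI 3 or wake sham 2 was left out. Over all genes, the share called in wake hearts was 10.3% without wake sham replicate 3 and 17% without wake MI replicate 1, and between these values in the other 4 fits. In sleep hearts Il6 passed in 4 of 6 fits, losing its call without sleep MI replicate 1 or 2, where 0 members were called. Of all genes, 0.703% and 1.53% were called in those 2 fits, against 2.68% with all arrays. Socs2 and Socs3 passed in sleep hearts in 1 fit each, without sleep sham replicate 2, where 2.84% of all genes were called. Over both times, Il6, Osmr, Jak2, Socs2 and Socs3 passed in all 12 fits and Stat3 in 10, losing its call without wake MI replicate 2 (limma adjusted p = 0.05684) or sleep MI replicate 2 (0.05488). Of all genes, 16.3% to 22.4% were called in those 12 fits. With the beta-actin ratio in the fit, 3 members stayed called over both times (Il6, Socs2 and Socs3), and Il6 alone was called in wake hearts and in sleep hearts. Over all genes, 8.32% were called in that fit over both times, 3.27% in wake and 2.12% in sleep hearts. The wake change of Socs3 was then 2.65 (limma adjusted p = 0.05828), with an SE of 0.70 against 0.53 without the ratio. In wake hearts the ratio was 2.165 to 3.312 after MI and 1.765 to 1.806 after sham surgery, with no overlap. Ratio and surgery thus cannot be told apart there, and what a lost call means was not tested.

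Among MI hearts no member passed the test between wake and sleep groups. Of the 9 members 0 were called with limma, 0 had an unadjusted p below 0.05, and 0.074% of all genes were called. The log2 difference, wake minus sleep, ran between -0.36 and 0.18 over the members. It was -0.36 for Il6 (interval -1.45 to 0.74) and -0.32 for Socs3 (interval -1.45 to 0.82), so differences of a factor of more than 2 are within these intervals. For Osmr it was -0.02 (interval -0.57 to 0.52).

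Among sham hearts Osmr was lower in the wake than in the sleep group, and the other members did not pass. Osmr was at a log2 difference of -1.30, wake minus sleep (SE 0.25, interval -1.84 to -0.75, limma adjusted p = 0.02143), and no array of one group reached the other. This was 1 of 9 members, where 1.52% of all genes were called, 0.419% higher and 1.1% lower in wake sham hearts. How many of all genes had an unadjusted p below 0.05 was not counted. A further 4 members lay below that value and did not pass after adjustment. These were Il6 at -1.66 (limma adjusted p = 0.1507), Socs3 at -1.68 (limma adjusted p = 0.159), Il6ra at -0.69 (limma adjusted p = 0.1611) and Stat3 at -0.51 (limma adjusted p = 0.2288). Socs2 was at 0.19 (limma adjusted p = 0.7014). The median over the members was -0.51, against 0.02 over all genes tested. The Osmr call was lost without wake sham replicate 1 (limma adjusted p = 0.1446) or 3 (0.07691) and without sleep sham replicate 1 (0.1097) or 2 (0.1109). It was also lost with the mean of its probe sets (-0.82, limma adjusted p = 0.08945), with the beta-actin ratio in the fit (0.1021) and with the sham arrays fitted alone (0.08012).

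Leaving out replicate 3 of the sleep sham group changed much of this comparison. That array was singled out for its low signals of these genes. Where it was the lowest sleep sham array, leaving it out had to raise the sleep sham mean. The direction of the resulting changes was thus fixed by the choice, and they are no separate evidence. The mean of sleep sham replicates 1 and 2 exceeded replicate 3 by 26.4 times for Il6, 5.34 times for Socs3, 2.31 times for Osmr, 1.78 times for Stat3, 1.77 times for Socs2 and 1.44 times for Il6ra. For Il6st the ratio was 1.04. Without replicate 3, 4 members were called as lower in wake sham than in sleep sham hearts, where 2.82% of all genes were called. They were Il6 at -2.45 (limma adjusted p = 0.001082), Osmr at -1.68 (limma adjusted p = 0.0001428), Stat3 at -0.78 (limma adjusted p = 0.009099) and Socs3 at -2.39 (limma adjusted p = 0.007347). The MI changes of these genes in sleep hearts were then smaller. Il6 stayed called at 1.86 (limma adjusted p = 0.01348), where 1.02% of all genes were called. Socs3 gave 1.42 (limma adjusted p = 0.138), Socs2 0.51 (limma adjusted p = 0.08836), Osmr -0.25 (limma adjusted p = 0.5717) and Stat3 -0.01 (limma adjusted p = 0.9891). Jak2 gave 0.23 (limma adjusted p = 0.5945), and Il6ra, Il6st and Lifr did not pass there either. Over both times the same 6 members were called without it, where 16.3% of all genes were called.

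**Figure D3:**
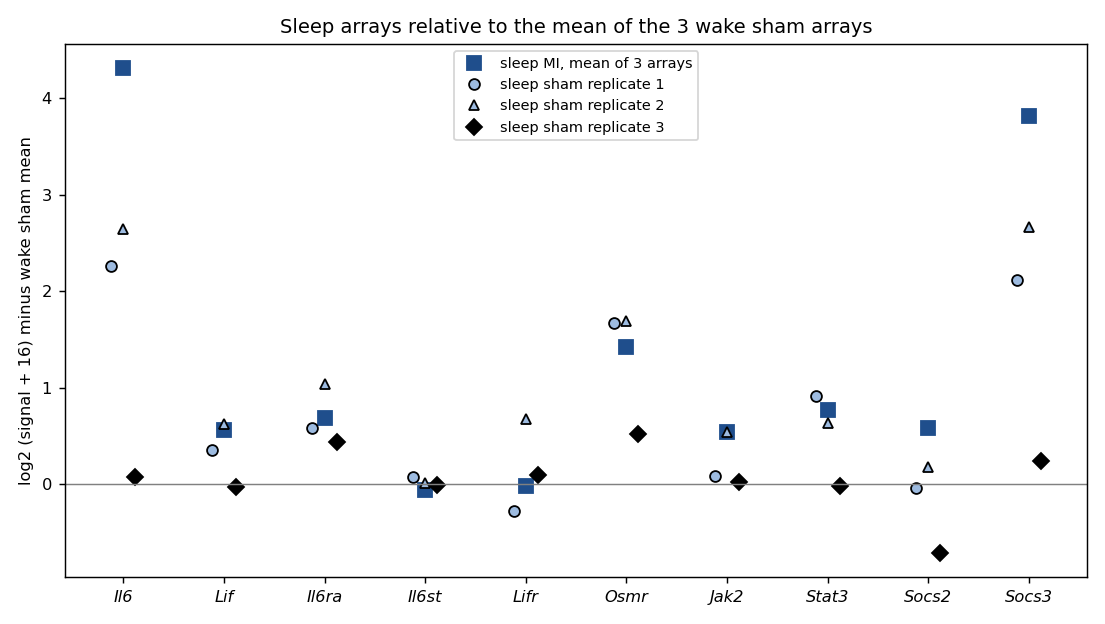
Log2(signal + 16) minus the wake sham mean (horizontal line at 0) for the 10 genes: mean of the 3 sleep MI arrays (squares), sleep sham replicates 1 (circles) and 2 (triangles), and replicate 3 (diamonds). For Il6, Osmr, Stat3 and Socs3 replicates 1 and 2 lie well above 0, and replicate 3 lies below both of them for each of these genes.

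Whether the MI change itself differed between times was tested with the interaction term, the wake MI change minus the sleep MI change. With limma 0 of 9 members passed, 2 (Il6ra and Osmr) had an unadjusted p below 0.05, and 0% of all genes were called. That 0% is at the adjusted threshold, and the share of all genes at the unadjusted one was not counted. The difference of log2 changes was 1.27 for Osmr (interval 0.50 to 2.04, limma adjusted p = 0.2392) and 0.87 for Il6ra (interval 0.21 to 1.54, limma adjusted p = 0.3418). It was 1.30 for Il6 (interval -0.25 to 2.85, limma adjusted p = 0.547) and 1.36 for Socs3 (interval -0.24 to 2.96, limma adjusted p = 0.5468). For Stat3 it was 0.41 (limma adjusted p = 0.6037), and Socs2 went the other way at -0.21 (limma adjusted p = 0.8161). Without sleep sham replicate 3, Osmr passed at 1.66 (limma adjusted p = 0.006532), where 0.444% of all genes were called. Il6 gave 2.09 (limma adjusted p = 0.05214) and Socs3 2.08 (limma adjusted p = 0.1316) in that fit. The direction of these shifts was fixed by leaving out the lowest sleep sham array of these genes.

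The rest of the pathway was taken from 4 lists, all chosen with earlier results of these data known. The first held the other ligands and receptors of the family. Only 3 of these 11 genes reached the level filter (Ctf1, Clcf1 and Il27ra), and 0 were called with limma in any of the 6 comparisons. At an unadjusted p below 0.05 there were 2 over both times and 1 in wake hearts, and all genes were not counted at that threshold. Of 12 tested genes for other kinases, STATs and adaptors, 1 rose and 3 fell over both times, with a median of -0.10, beside 8.57% higher and 13.6% lower among all genes. Counts this small do not set the list apart from that background. Jak1, a kinase that works beside JAK2 on gp130, rose by 0.24 (limma adjusted p = 0.02055). Stat5a and Stat5b, genes of a pair of related transcription factors, changed by -0.34 (limma adjusted p = 0.03709) and -0.24 (limma adjusted p = 0.02484). Gab1, an adaptor of growth factor and cytokine receptors, changed by -0.34 (limma adjusted p = 0.02236). In wake hearts Stat5b alone was called (-0.33, limma adjusted p = 0.03507), where 10.6% of all genes were lower. In sleep hearts, where 0.986% of all genes were lower, Gab1 alone was called (-0.58, limma adjusted p = 0.03538). Both are marginal: leaving out 1 array, Stat5b passed in 1 of 6 fits and Gab1 in 0 of 6, with Gab1 at -0.64 (limma adjusted p = 0.07794) without sleep sham replicate 3. With the groups compared fitted alone, Stat5b in wake (limma adjusted p = 0.08351) and Gab1 in sleep hearts (0.05533) did not pass, and neither did so with the mean of probe sets (0.3868 and 0.08303). Without sleep sham replicate 3, Jak1 and Gab1 stayed called over both times and Stat5a and Stat5b did not. Over the 12 fits with an array left out, Stat5a passed in 2 and Jak1, Gab1 and Stat5b in 10 each. With the beta-actin ratio in the fit, none of Jak1, Gab1, Stat5a and Stat5b passed over both times. Their limma adjusted p values were then 0.0853 to 0.3099, where 8.32% of all genes were called. With the mean of its probe sets Stat5b was at -0.02 over both times (limma adjusted p = 0.8946).

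Some other negative regulators of JAK and STAT signalling also rose. Of 10 tested, 4 rose and 1 fell over both times, with a median log2 change of 0.11, beside 8.57% higher and 13.6% lower among all genes. Cish, a SOCS family gene known to be induced through STAT5, changed by 0.68 (limma adjusted p = 0.004932). Ptpn2 and Ptpn1, genes of tyrosine phosphatases that act on JAKs, changed by 0.66 (limma adjusted p = 0.005426) and 0.54 (limma adjusted p = 0.009108). Socs6 rose by 0.32 (limma adjusted p = 0.02103), and Pias3, whose protein inhibits STAT3, was at -0.25 (limma adjusted p = 0.04668), a marginal call that held in 5 of 24 alternatives and in 1 of 12 fits with an array left out. In wake hearts Ptpn2 (0.89, limma adjusted p = 0.008537) and Ptpn1 (0.82, limma adjusted p = 0.008055) were called, where 7.8% of all genes were higher. In sleep hearts, where 1.69% of all genes were higher, Cish alone was called (1.13, limma adjusted p = 0.01076), against 0.23 in wake hearts (limma adjusted p = 0.4597). For the difference of the MI changes between times, 0 of the 10 genes were called with limma, as were 0% of all genes. Cish read 539, 508 and 775 in wake sham hearts against 367, 340 and 219 in sleep sham hearts. It was the 1 gene of the list called between them, higher in wake (0.95, limma adjusted p = 0.03643), where 0.419% of all genes were higher. Without sleep sham replicate 3, Cish, Ptpn1 and Ptpn2 were called over both times, Cish in sleep hearts, and none of the list between the sham groups. The shares of all genes called were then 16.3%, 1.02% and 2.82%. With the beta-actin ratio in the fit none of these 5 genes passed over both times, with limma adjusted p values between 0.07639 and 0.2173.

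Of 20 genes known to be induced through STAT3, all tested, 15 rose and 0 fell after MI over both times. Their median log2 change was 1.09, against -0.06 for all genes. The list was chosen with earlier results of these data known, so its counts and medians are a description and no separate evidence. Among all genes tested, 8.57% were called as higher over both times, 7.8% in wake and 1.69% in sleep hearts. In wake hearts 14 of the 20 rose (median 1.64), and in sleep hearts 6 of the 20 rose (median 0.64): Fos, Myc, Junb, Hif1a, Pim1 and Fgl2. Many of these genes also answer to other signals, and the neutrophil markers rose with them: all 6 tested neutrophil markers were called over both times, 5 in wake and 2 in sleep hearts. Without sleep sham replicate 3, 5 were called over both times and 0 in sleep hearts, where 16.3% and 1.02% of all genes were called. The part of the neutrophil markers in these changes was not tested. Fos, an immediate early gene of the AP-1 factor, read 536, 964 and 1799 in wake MI hearts against 39.2, 46.5 and 55.1 in wake sham hearts. Sleep hearts read 1578, 1114 and 1053 after MI against 87.3, 143 and 34.3 after sham surgery. It rose by 3.99 in wake (limma adjusted p = 4.972e-05) and 3.73 in sleep hearts (limma adjusted p = 0.0001548). The difference between these changes was 0.26 (SE 0.56, limma adjusted p = 0.902).

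Junb, another AP-1 gene, rose by 2.60 in wake (limma adjusted p = 0.0002718) and 1.52 in sleep hearts (limma adjusted p = 0.02723), and Myc, a growth regulator, by 2.27 (limma adjusted p = 0.0002965) and 1.54 (limma adjusted p = 0.01437). Hif1a, the oxygen-sensing factor, rose by 1.18 in wake (limma adjusted p = 0.0005439) and 0.87 in sleep hearts (limma adjusted p = 0.01556). Pim1, a survival kinase, rose by 1.04 in wake (limma adjusted p = 0.0006585) and 0.76 in sleep hearts (limma adjusted p = 0.01827). The wake calls of Junb, Myc, Hif1a and Pim1 held in all 6 fits with an array left out. Their sleep calls were less firm, holding in 1 of 6 such fits for Junb, 2 for Hif1a, 3 for Pim1 and 4 for Myc. Myc lost its sleep call without sleep MI replicate 1 or 2. Il4ra, a receptor chain for interleukin-4, rose in wake hearts by 2.18 (limma adjusted p = 7.029e-05) and in sleep hearts was at 0.63 (limma adjusted p = 0.1674). Bcl2l1, whose protein blocks cell death, rose in wake hearts by 1.69 (limma adjusted p = 0.0002172) and in sleep hearts was at 0.29 (limma adjusted p = 0.5208). The 5 genes of the list that did not pass over both times were Irf1 (-0.02), Mcl1 (0.10), Serpina3n, Saa3 and Lbp. In sleep hearts Lbp read 118, 162 and 135 after MI against 248, 249 and 125 after sham surgery. Saa3 read 85.5, 221 and 521 against 413, 257 and 12.4, and Serpina3n 291, 359 and 652 against 520, 526 and 97.0.

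**Figure D4:**
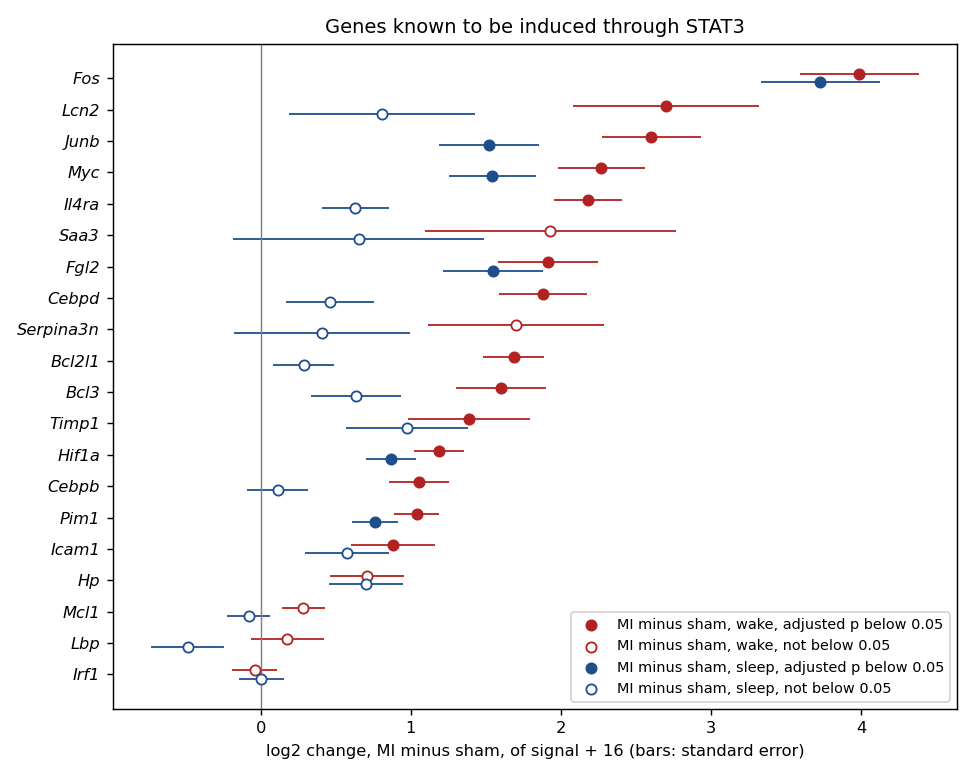
Log2 change of signal + 16, MI minus sham, of the 20 genes known to be induced through STAT3, in wake (red) and sleep hearts (blue), ordered by the wake value; bars are standard errors and filled points have a limma adjusted p below 0.05. Of the 20, 14 are filled in wake and 6 in sleep hearts, and Fos has nearly equal values at both times (3.99 and 3.73).

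Between the sham groups 4 of the 20 STAT3-induced genes passed the test, where 1.52% of all genes were called, 1.1% as lower. All 20 had lower fitted values in wake than in sleep sham hearts, with a median of -0.80, and those called were Il4ra at -1.35 (limma adjusted p = 0.00832), Bcl2l1 at -1.17 (limma adjusted p = 0.01268), Cebpb at -1.14 (limma adjusted p = 0.01271) and Cebpd at -1.51 (limma adjusted p = 0.02112). Their summed signals were 3109 to 4452 in wake sham hearts, against 7824, 9364 and 4780 in the sleep sham hearts, the last being replicate 3. Without that array 12 of 20 were called as lower in wake sham hearts (median -1.16), where 2.82% of all genes were called in either direction. With MI in sleep hearts, where 1.02% of all genes were then called, 2 of the list stayed called, Fos (3.28, limma adjusted p = 0.0003688) and Myc (1.20, limma adjusted p = 0.04902). For the difference of the MI changes, 0 of 20 were called with limma, 7 had an unadjusted p below 0.05, and the median was 0.70. These 7 have no share of all genes at that threshold beside them, since it was not counted. Without replicate 3, Cebpd, Junb and Il4ra were called, at 1.79, 1.57 and 1.90, where 0.444% of all genes were called. Here too the array left out had been singled out for its low signals of the family members.

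The genes whose signals ran most like those of Il6, Socs3 and Osmr over the 12 arrays are given as a description, with Pearson r of log2(signal + 16). The points share the 4 groups and the same arrays. For Il6 they were Cxcl1 (0.985) and Cxcl2 (0.984), genes of neutrophil-attracting chemokines, and Selp (0.982), the gene of P-selectin on activated endothelium and platelets. Cxcl1 read 285, 400 and 441 in wake MI hearts against 34.9, 34.02 and 30.7 in wake sham hearts. In sleep hearts it read 581, 600 and 355 after MI against 187, 266 and 20.0 after sham surgery, so replicate 3 was again the low sleep sham array. For Socs3 they were Dusp1 (0.990), the gene of a phosphatase of MAP kinases, Junb (0.986) and Litaf (0.983). For Osmr they were Cebpd (0.972), a transcription factor gene of the acute phase response, Klhl2 (0.959) and Mt2 (0.956), a metallothionein gene. The log2 difference of wake minus sleep sham hearts was -1.51 for Cebpd, -1.25 for Klhl2 and -2.91 for Mt2, beside -1.30 for Osmr, as the choice of genes like Osmr makes likely.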

How the data were processed

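The deposited values are MAS5 signal intensities on a linear scale, 1 per probe set and array; the submitters' processing notes name MAS5 and no version. The authors scaled each array to a trimmed mean near 150.1, as the values show. Scaling of this kind can hide a shift shared by most genes, and detection calls were not used here. RNA was extracted from snap-frozen tissue with Trizol and labelled as biotinylated cRNA, per the labels' protocols. Nothing in the labels says more of the animals than 1 sample each, and no batch or scan date was given.

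Control probe sets were left out, and 20380 of 22690 probe sets carried 1 gene symbol. Each gene was represented by its probe set of highest mean signal, and genes below the 40th percentile of mean signal (17.3) were not tested, which left 8111 genes. Log2(signal + 16) was fitted with limma 3.58.1 in R 4.3.3 (lmFit, eBayes with an intensity trend) over all 12 arrays, with 6 contrasts and Benjamini-Hochberg adjustment over all genes tested within each. Code was tested on simulated data. The members and gene lists were chosen with earlier results of these data known. Beyond the members, the text names up to 4 called genes each way per list with the smallest adjusted p in the MI comparisons, and the 3 genes most correlated with Il6, Socs3 and Osmr. Genes named outside that rule, such as Cebpb, Cebpd, Fgl2, Irf1 and Mcl1, were chosen after their values were seen. Alternatives were another pseudocount, level filter, normalization, probe-set rule, variance model, sample set, replicate block, beta-actin covariate and each array left out. Promoters came from RefSeq (GRCm38.p6). P-values set a group difference against the spread between arrays within groups, which limma pools over the groups and moderates across genes.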

Additional observations from a re-analysis of the deposited data

How the results depend on the processing

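Of 50 results for single genes that passed the test, 20 stayed past it in every alternative, and the cause of the losses was not tested. Fitting the beta-actin ratio as covariate, 3 members were called over both times, 1 in wake hearts, 1 in sleep hearts and 0 between sham groups, where 0.468% of all genes were called. In sleep hearts 1 member was called with a pseudocount of 1 (2.48% of all genes), with no level filter (1.13%) or with robust variances (2.42%), and 0 with the sleep arrays fitted alone (2.34%). Il6 lost its sleep call in these fits except the one with no level filter. Between sham groups 0 were called with probe sets averaged per gene (0.888% of all genes) or with the sham arrays fitted alone (0.801%), and 4 with array weights (4.55%). Leaving out 1 array, members called numbered 3 to 5 in wake hearts, 0 to 3 in sleep hearts, 0 to 4 between sham groups and 0 to 1 for the difference of MI changes. The share of all genes called in these fits was 10.3% to 17% in wake hearts and 0.703% to 2.84% in sleep hearts. It was 0.37% to 2.82% between sham groups and 0% to 0.444% for the difference of MI changes. The results whose sign turned had not passed the test. For MI over both times, Lifr was at 0.065 with array weights and 0.11 with the covariate. In wake hearts Il6st was at 0.0086 with quantile normalization and 0.016 with median centring, and Lifr at -0.081 with the mean of probe sets. In sleep hearts Il6ra was at -0.0057 with a pseudocount of 1, -0.12 with the mean of probe sets, -0.070 with array weights and -0.037 with the covariate, Il6st at 0.043 with the mean of probe sets and Osmr at -0.029 with array weights. Between MI groups Osmr was at 2e-04 with array weights. Leaving out 1 array, the ranges over both times were -0.093 to 0.0056 for Il6st and -0.17 to 0.066 for Lifr. In wake hearts they were -0.10 to 0.096 for Il6st and -0.056 to 0.26 for Lifr. In sleep hearts they were -0.22 to 0.23 for Il6ra, -0.40 to 0.074 for Lifr, -0.25 to 0.33 for Osmr and -0.0088 to 0.46 for Stat3. Between MI groups they were -0.045 to 0.41 for Il6ra, -0.14 to 0.069 for Osmr and -0.86 to 0.013 for Socs3. For Socs2 they were -0.076 to 0.37 between sham groups and -0.39 to 0.052 for the difference of MI changes. Over 18 pairs of samples with the same replicate number, the median r of deviations was -0.009 (range -0.17 to 0.253). Over 36 other pairs it was -0.038 (range -0.197 to 0.284). These values show no clear pairing by number, but deviations from means of 3 arrays are a weak check that cannot exclude one. With the replicate number as a block, Socs2 in wake hearts was at 0.56 (limma adjusted p = 0.05055), Socs3 in sleep hearts at 2.14 (0.07291), Pias3 over both times at -0.25 (0.06367) and Gab1 in sleep hearts at -0.58 (0.05744). The fits without sleep sham replicate 3 over whole gene lists were added after seeing the data. Signals below about 17, as for Lif, limit what can be ordered.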
